A study of Danio rerio with 340 samples.

Results

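The genes of the glutathione S-transferase (GST), UDP-glucuronosyltransferase (UGT) and cytosolic sulfotransferase (SULT) families were followed in single zebrafish larvae of up to 5 strains exposed to valproic acid, hydroxyurea or warfarin. All genes of the count table whose symbol begins with gst and a letter, or with ugt or sult and a digit, were taken, which gave 65 of 31658 genes. Of these, 18 were GST, 28 were UGT and 19 were SULT genes. Microsomal GST genes (mgst) belong to another protein family and were followed only as supporting genes.

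These enzymes make foreign and endogenous compounds more soluble by attaching a polar group to them. GST enzymes join glutathione to reactive compounds, UGT enzymes transfer a sugar, mostly glucuronic acid from UDP-glucuronate, and SULT enzymes transfer sulfate from the donor PAPS. In vertebrates these reactions take place mainly in liver, intestine and kidney, and several of the genes are targets of the stress-responsive factor Nrf2 or of nuclear receptors that sense foreign compounds. Valproic acid, an antiepileptic drug, is largely glucuronidated in humans. Hydroxyurea blocks ribonucleotide reductase, and warfarin blocks the recycling of vitamin K.

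Wild-type larvae were collected whole at 5 dpf after exposure from 5–6 hpf, and the RNA of each larva was sequenced from its 3′ ends (Lasy-Seq). Of the strains, 4 are kept in laboratories (AB, TU, RW and WIK), and PET came from a pet store. In the valproic acid experiment, 8 larvae of each of the 5 strains were measured at 0, 1, 5 and 20 µM (40 larvae per dose). In the hydroxyurea experiment, AB, TU, RW and PET were measured at 0, 1.3, 6.6 and 33 mM with 24, 26, 28 and 26 larvae. In the warfarin experiment, the same 4 strains were measured at 0, 150 and 300 µM with 25, 26 and 25 larvae. A group of 1 strain and dose held 4 to 7 larvae with hydroxyurea and 5 to 7 with warfarin. The larvae of a group shared 1 exposure, so each p-value below measures the spread between single larvae of that exposure, and strain cannot be told apart from clutch.

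Larvae had 124136 to 14186334 counts in all (median 2272278), so that 3 counts were worth 24.2 CPM (counts of a gene per 1e6 counts) in the shallowest larva and 1.32 CPM at the median depth. These floors cover counting error only, since no molecular identifiers are described. The median total was 1861693.5 at 20 µM valproic acid against 2745997 at 0, and 1825796 at 33 mM hydroxyurea against 2698895.5 at 0. Levels below are CPM after TMM normalisation. Changes are log2 fold changes with their standard errors (SE) from edgeR's quasi-likelihood test with strain as a term, and a gene was called when its Benjamini-Hochberg adjusted p over all genes tested was under 0.05. Of the 65 genes, 48 passed the filter on low counts in the valproic acid experiment, 42 in the hydroxyurea experiment and 42 in the warfarin experiment. A further 15 passed in none of them, of which 11 were UGT, 3 SULT and 1 GST.

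One larva stood apart from its group. TU larva 7 at 33 mM hydroxyurea had 54.0 CPM of ugt5a2, where the other 6 larvae of its group had 0.573 to 5.79 CPM and the highest of 77 other TU larvae in all experiments had 18.6 CPM. It also had 237 CPM of ugt1a1 (58.9 to 103 CPM in the others), 186 CPM of gstt1b (39.6 to 75.9 CPM), 102 CPM of ugt2a4 (24.9 to 53.6 CPM) and 212 CPM of gsto2 (23.1 to 62.3 CPM). All 5 are among the genes that were higher with warfarin below, whereas gsta.2, which was also higher with warfarin, was at 19.1 CPM in this larva and 12.8 to 46.9 CPM in the others. These genes were picked by hand from those higher with warfarin, so this overlap was fixed by the choice. sult1st3, which was not called with warfarin, also stood apart in this larva (14.0 CPM, next 1.89 CPM). Of the 77 other TU larvae in all experiments, 6 were at or above this larva for ugt1a1, 10 for gstt1b, 13 for ugt2a4 and 5 for gsto2. The count of members called at 33 mM hydroxyurea and the values of some of them are therefore given with and without this larva. The other hydroxyurea results, among them those within strains, between strains, of the gene lists and across compounds, are given with it only.

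GST genes made up 71.9% of all counts of the 65 genes, SULT genes 15.7% and UGT genes 12.4%. The most counts fell on gstp1, a pi-class GST and a known Nrf2 target in zebrafish, with 26.0%, and on gsta.1, an alpha-class GST, with 18.2%. Counts were not scaled by transcript length, so these are shares of counts and not of molecules. In the other classes, the genes with the most counts were gstk1, gstm.1, gsto2, gstr, gstt1a and gstz1 among GST genes, ugt1a1, ugt2a4, ugt5b2 and ugt8 among UGT genes, and sult1st6, sult2st2, sult3st3, sult4a1, sult5a1 and sult6b1 among SULT genes. At 0, gstp1 averaged 653 ± 221 CPM (SD, n = 40) in the valproic acid experiment, 782 ± 123 CPM (n = 24) in the hydroxyurea experiment and 916 ± 166 CPM (n = 25) in the warfarin experiment.

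Neighbouring members limit some of the single values. In RefSeq's annotation of a later assembly (GRCz12tu), which matched 63 of the 65 genes by name, 10 members share a boundary with another member within 100 bases. These are ugt1b1, ugt1b2, ugt1b3, ugt1b4 and ugt1b7, the pair ugt5a1 and ugt5a2, and ugt5b1, ugt5b2 and ugt5b4. Reads from a 3′ method may have been split between such genes.

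The calls ran in different directions with the 3 compounds. Warfarin raised 6 GST and 6 UGT genes at 150 µM and 6 GST and 5 UGT genes at 300 µM, with gstr among the GST genes at 150 µM only and gstp2 at 300 µM only, whereas most calls at the highest doses of valproic acid and hydroxyurea were decreases, in all 3 families. The plot of fold changes shows each gene tested.

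**Figure D1:**
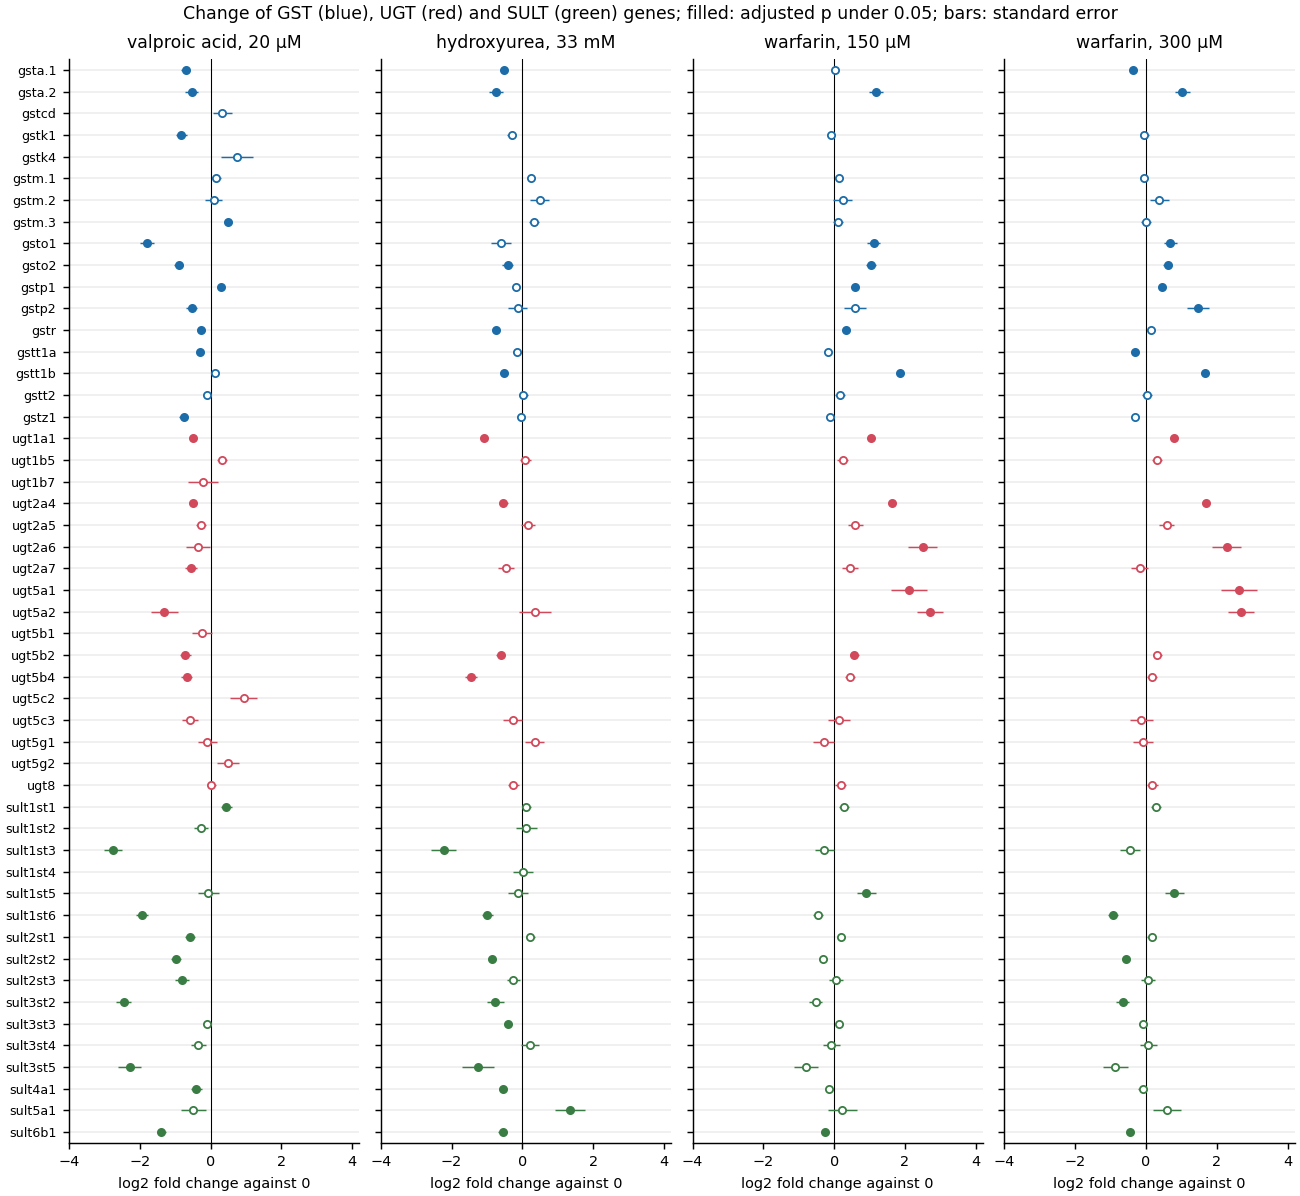
Log2 fold change against 0 (x axis) of each gene (y axis) at 20 µM valproic acid, 33 mM hydroxyurea and 150 and 300 µM warfarin, with GST genes in blue, UGT genes in red and SULT genes in green. Filled points passed an adjusted p of 0.05 in edgeR's quasi-likelihood test and bars are SE. At 300 µM warfarin, 11 GST and UGT genes, among them ugt2a6 and ugt5a1 at low counts, lie to the right as filled points. With valproic acid and hydroxyurea, 24 and 17 genes of the 3 families lie to the left as filled points.

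With warfarin, 13 of the 42 genes tested were higher and 1 was lower at 150 µM than at 0, where 1.74% of all 13482 genes were higher and 1.44% lower. At 300 µM, 12 were higher and 6 lower, where 4.64% of all genes were higher and 4.95% lower. Both doses were set against the same 25 larvae at 0. By family, 6 of 15 GST, 6 of 13 UGT and 1 of 14 SULT genes were higher at 150 µM, and 6, 5 and 1 at 300 µM. The UGT genes counted include ugt2a6 and ugt5a1, which passed the filter largely through exposed larvae, so their calls add little weight. The SULT gene counted, sult1st5, may have passed in the same way. The median log2 fold change over the genes tested was 0.22 at 150 µM and 0.15 at 300 µM, where it was 0.01 and 0.00 over all genes. In whole larvae, fewer cells of a type and less RNA per cell cannot be told apart.

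The increase was clearest for ugt2a4 and gstt1b. ugt2a4 belongs to the UGT2 family, whose mammalian members act on steroids and bile acids. Its level was 35.0 to 102 CPM at 0 (median 60.9), 126 to 269 CPM at 150 µM (median 207) and 106 to 324 CPM at 300 µM (median 200.2). Every exposed larva, 26 of 26 and 25 of 25, lay above every larva at 0. The log2 fold change was 1.64 ± 0.10 (SE, adjusted p = 1e-25, edgeR's quasi-likelihood test) at 150 µM and 1.68 ± 0.10 (adjusted p = 5.02e-26) at 300 µM.

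gstt1b encodes a theta-class GST. Its level was 60.9 to 165 CPM at 0 (median 90.1), 200.5 to 604 CPM at 150 µM (median 344) and 142 to 469 CPM at 300 µM (median 276). All 26 larvae at 150 µM and 24 of 25 at 300 µM were above every larva at 0. The log2 fold change was 1.86 ± 0.10 (adjusted p = 1.92e-28, edgeR's quasi-likelihood test) at 150 µM and 1.66 ± 0.10 (adjusted p = 6.17e-25) at 300 µM. gstt1a, another theta-class gene, was lower at 300 µM, with 153 ± 51.9 CPM against 189.6 ± 44.4 CPM at 0 (SD, log2 fold change -0.32, adjusted p = 0.00888, edgeR).

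ugt1a1, whose human counterpart conjugates bilirubin, was at 55.3 to 203 CPM at 0 (median 127), 142 to 403 CPM at 150 µM (median 261) and 92.9 to 386 CPM at 300 µM (median 239). The groups overlapped, with 22 of 26 and 14 of 25 exposed larvae above every larva at 0. The log2 fold change was 1.03 ± 0.10 (adjusted p = 7.49e-13, edgeR's quasi-likelihood test) at 150 µM and 0.80 ± 0.11 (adjusted p = 4.24e-09) at 300 µM.

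**Figure D2:**
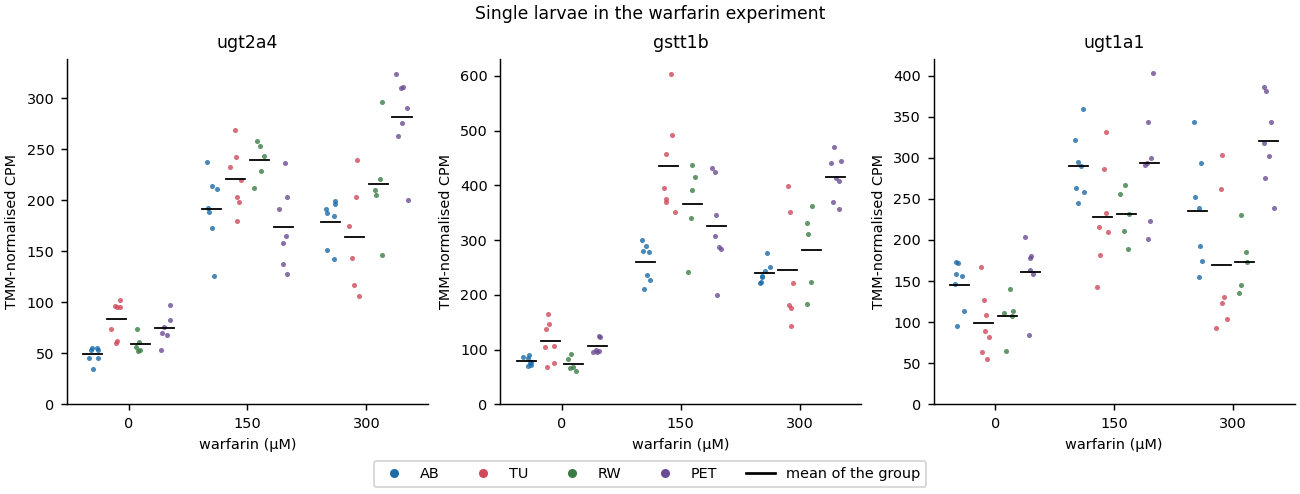
TMM-normalised CPM (y axis) of ugt2a4, gstt1b and ugt1a1 in single larvae by warfarin dose in µM (x axis), coloured by strain, with black lines at the group means. All exposed larvae lie above all larvae at 0 for ugt2a4, whereas 14 of 25 larvae at 300 µM do so for ugt1a1.

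Of the other GST genes, gstp1, gsto1, gsto2 and gsta.2 were higher at both doses. gstp1 averaged 916 ± 166 CPM at 0, 1369.7 ± 191 CPM at 150 µM and 1255 ± 243 CPM at 300 µM, with log2 fold changes of 0.58 (adjusted p = 1.12e-12, edgeR's quasi-likelihood test) and 0.46 (adjusted p = 3.69e-09). The omega-class genes gsto1 and gsto2, which act as thiol transferases and reduce dehydroascorbate, had log2 fold changes of 1.12 and 1.04 at 150 µM and 0.69 and 0.62 at 300 µM. gsta.2, an alpha-class gene, averaged 44.5 ± 16.4 CPM at 0, 103 ± 57.4 CPM at 150 µM and 87.0 ± 60.9 CPM at 300 µM. gstr, of the fish-specific rho class, was called only at 150 µM (log2 fold change 0.34, adjusted p = 0.0134, edgeR), as was ugt5b2 (0.57, adjusted p = 0.000944).

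Low counts lay behind the UGT genes ugt2a6 and ugt5a1. ugt2a6 had a count in 13 of 25 larvae at 0, 25 of 26 at 150 µM and 24 of 25 at 300 µM, and ugt5a1 in 5, 23 and 23 larvae. Their log2 fold changes at 300 µM were 2.28 ± 0.41 and 2.64 ± 0.50. Both were carried over the filter largely by the exposed larvae, so their calls are of little weight.

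ugt5a2 and gstp2 differed between exposed larvae of 1 strain and dose, and gstp2 also between larvae of 1 strain at 0. The UGT5 family occurs in fishes and not in mammals. ugt5a2 was at 0 to 13.9 CPM in larvae at 0, with a log2 fold change of 2.71 ± 0.37 (adjusted p = 4.07e-08, edgeR's quasi-likelihood test) at 150 µM and 2.69 ± 0.37 (adjusted p = 1.13e-08) at 300 µM. Levels above 30 CPM, a value chosen after the levels were seen, were found in 7 of 7 AB, 5 of 7 PET, 4 of 5 RW and 0 of 7 TU larvae at 150 µM, and in 7 of 7 AB, 3 of 7 PET, 4 of 5 RW and 0 of 6 TU larvae at 300 µM. In PET at 300 µM the 4 lower larvae had up to 6.92 CPM and the 3 higher ones 49.9 CPM or more. The highest TU larvae had 16.3 CPM at 150 µM and 18.6 CPM at 300 µM. The strain by dose term of ugt5a2 had an adjusted p of 0.873 (edgeR's quasi-likelihood test), so a difference between strains in its change was not shown.

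gstp2, a second pi-class gene, was at 20.4 to 185 CPM at 0, 30.8 to 509 CPM at 150 µM and 25.3 to 688 CPM at 300 µM. Its log2 fold change was 1.46 ± 0.31 (adjusted p = 0.000332, edgeR's quasi-likelihood test) at 300 µM and 0.59 ± 0.31 (adjusted p = 0.41) at 150 µM. Levels above 300 CPM, again chosen after the levels were seen, were found in 4 of 7 AB larvae (338 to 537 CPM, the others up to 72.6 CPM), 2 of 7 PET larvae (662 and 688 CPM, the others up to 125 CPM), 1 of 5 RW larvae (542 CPM, the others up to 107 CPM) and 0 of 6 TU larvae at 300 µM. At 150 µM 1 AB larva and 1 PET larva had such levels, and no larva did at 0 or in the other experiments. Gaps below this cut were present at 0 as well. In AB, 5 of 7 larvae at 0 had up to 26.2 CPM and the others 113 CPM or more. In RW, 1 of 5 had 27.7 CPM and the others 122 to 185 CPM, above the 4 lower RW larvae at 300 µM. At 0 in the hydroxyurea experiment, 6 of 7 AB larvae had up to 31.6 CPM and the last 200 CPM. The plot of the 2 genes over single larvae shows these gaps.

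**Figure D3:**
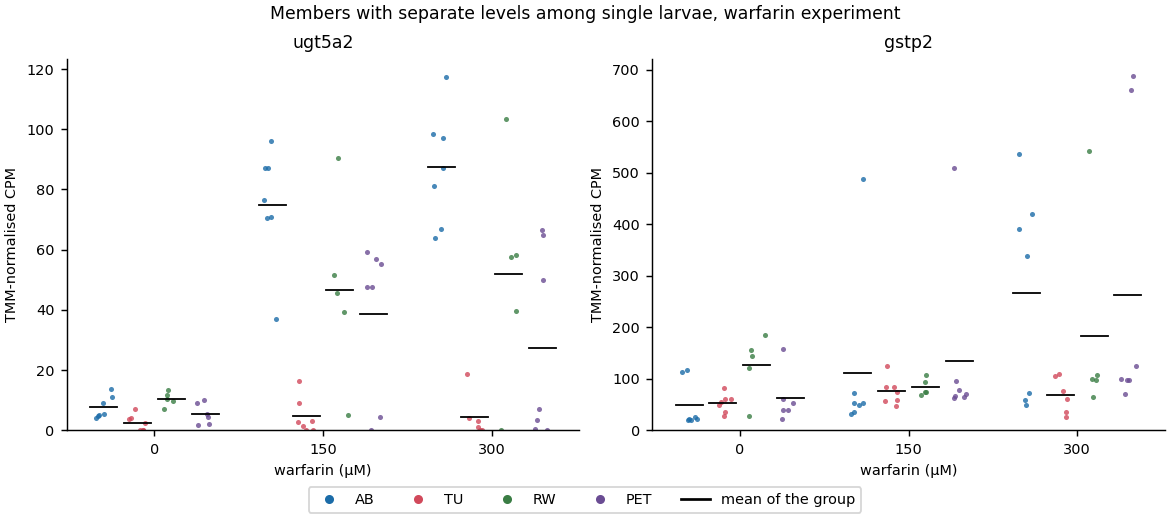
TMM-normalised CPM (y axis) of ugt5a2 and gstp2 in single larvae by warfarin dose in µM (x axis), coloured by strain, with black lines at the group means. For ugt5a2, AB larvae lie high at both doses, TU larvae low and PET and RW larvae in both ranges, and for gstp2 7 of 25 larvae at 300 µM lie above 300 CPM.

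Of 14 SULT genes tested with warfarin, 4 were lower and 1 was higher at 300 µM. The summed level of SULT genes was 578 ± 89.2 CPM at 0, 527 ± 61.8 CPM at 150 µM and 469.8 ± 69.3 CPM at 300 µM (SD), whereas that of UGT genes was 335 ± 57.2, 688 ± 95.6 and 654 ± 185 CPM and that of GST genes 2568 ± 396, 3512 ± 433 and 3148 ± 668 CPM. Lower at 300 µM were sult1st6 (log2 fold change -0.93 ± 0.15, adjusted p = 4.78e-07, edgeR's quasi-likelihood test), sult3st2 (-0.65), sult2st2 (-0.57) and sult6b1 (-0.45). sult1st6 was at 12.6 to 101 CPM at 0, 14.4 to 77.4 CPM at 150 µM and 1.58 to 59.5 CPM at 300 µM, so its groups overlapped widely. sult6b1 was also lower at 150 µM (-0.26, adjusted p = 0.0488, edgeR), a call that was lost without any 1 of RW larvae 1 to 5 at 150 µM or without RW larva 1 or 5 at 0 (adjusted p = 0.0512 to 0.0718). Only RW larvae, whose groups were the smallest, were left out singly in the warfarin experiment. sult1st5, a low SULT1 gene, was higher at both doses, at 3.04 ± 2.90 CPM at 0, 6.39 ± 3.11 CPM at 150 µM and 5.80 ± 3.45 CPM at 300 µM, and its call at 300 µM was lost without RW larva 1 or 3 at that dose (adjusted p = 0.0513 and 0.0655, edgeR). It may have passed the filter on low counts largely through exposed larvae, so its calls add little weight. When 300 µM was set against 150 µM, a comparison chosen after the values were seen, 1.25% of all genes were called. Of the 42 members tested, only gsta.1 differed, with 630.3 ± 216 CPM against 809 ± 139 CPM (log2 fold change -0.40, adjusted p = 0.00111, edgeR).

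Within strains, warfarin at 300 µM raised 7 members in AB, 9 in PET, 5 in RW and 3 in TU of 44 tested and lowered 2, 1, 0 and 2, where 2.70%, 0.884%, 1.91% and 3.03% of all genes were called. At 150 µM it raised 5, 5, 6 and 7 and lowered 0, where 0.391%, 0.465%, 0.479% and 0.735% of all genes were called. ugt2a4 and gstt1b were higher in each of the 4 strains at both doses, and the share of all genes higher in every strain was not counted. ugt1a1 was higher in all 4 at 150 µM and in AB, PET and TU at 300 µM (RW log2 fold change 0.68, adjusted p = 0.152, edgeR).

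The change of ugt2a4 at 300 µM differed between strains (strain by dose term, adjusted p = 0.0462, edgeR's quasi-likelihood test), where 0.391% of all genes did. Its log2 fold change was 1.86 ± 0.15 in AB, 1.93 ± 0.16 in PET, 1.86 ± 0.18 in RW and 1.00 ± 0.16 in TU. In TU the level was 60.0 to 102 CPM at 0 (median 94.9), 179 to 269 CPM at 150 µM (median 219.97) and 106 to 239 CPM at 300 µM (median 159), and at 0 it was higher in TU than in the mean of the others (log2 fold change 0.48, adjusted p = 0.0263). The adjusted p lay near the threshold, and the call was lost with larva number as a block, with counts thinned to 300000 per larva or without larvae of low total count. Leaving out 1 RW larva in turn, the call was also lost in 13 of 15 cases, namely each of larvae 1 to 5 at 0, each of larvae 1 to 5 at 150 µM, and larvae 1, 3 and 5 at 300 µM. Larvae of the other strains were not left out singly.

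Genes that feed or surround these reactions were followed with the same test. Of the genes for UDP-glucuronate supply, ugdh, which makes UDP-glucuronate, had log2 fold changes of 1.74 at 150 µM and 1.68 at 300 µM, and the summed level of the list had a median of 132 CPM at 0, 264 CPM at 150 µM and 264 CPM at 300 µM. Of 5 genes tested for glutathione supply, gclc, gclm and gsr were higher at both doses, and slc7a11 was lower at 300 µM, while the summed level of the list had a median of 344 CPM at 0, 343 CPM at 150 µM and 342 CPM at 300 µM. Of 12 Nrf2 genes tested, 6 were higher at 150 µM and 8 at 300 µM, and the last gene of that list, srxn1, had no count in this experiment. The higher Nrf2 genes include gclc and gclm, counted above for glutathione, and abcc2, counted again below. Of 6 nuclear receptors and targets, cyp3a65, abcb5 and abcc2, an exporter of conjugates, were higher at both doses. Among other conjugation genes, 5 of 11 tested were higher at 150 µM (mgst1.2, mgst3b, ephx1, tpmt.1 and tpmt.2) and 4 at 300 µM. None of 7 genes of the aryl hydrocarbon receptor list was higher at either dose, and cyp1a was lower at 300 µM (log2 fold change -0.90). Of 6 genes on the PAPS list, bpnt1 was higher at both doses, and at 300 µM papss2b was higher and sts lower. Median log2 fold changes of these lists at 300 µM, in the order given here, were 0.41, 0.81, 0.55, 0.39, 0.24, 0.01 and 0.19.

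Markers of tissues were followed beside these genes. Summed liver markers had medians of 9116 CPM at 0, 9876 CPM at 150 µM and 9164 CPM at 300 µM, with 1 of 13 higher at 150 µM and 4 higher and 4 lower at 300 µM. Summed intestine markers had medians of 4596, 4678 and 4200.1 CPM. Kidney markers had medians of 91.5, 75.6 and 63.7 CPM, and myelin markers 236, 194 and 179 CPM. At 300 µM, 1 of 9 intestine, 1 of 6 kidney and 3 of 6 myelin markers were lower. All 9 markers of the exocrine pancreas were lower at both doses, with medians of 7305 CPM at 0, 3848 CPM at 150 µM and 2173 CPM at 300 µM. Their part in the changes of the conjugation genes was not tested.

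With valproic acid, no member was called at 1 µM by edgeR (3 of 48 had an unadjusted p under 0.05, and DESeq2's Wald test called 1), where 0.0055% of 18192 genes were called. At 5 µM, where 0.209% of all genes were higher and 2.17% lower, gstz1 (log2 fold change -0.51), which isomerises maleylacetoacetate in tyrosine breakdown, and gstm.1 (-0.46), a mu-class GST, were lower. Neither was called without PET larvae. At 20 µM, 3 of the 48 genes tested were higher and 24 lower, where 8.99% of all genes were higher and 11.5% lower. Lower were 9 of 17 GST, 6 of 16 UGT and 9 of 15 SULT genes, and higher were 2 GST and 1 SULT gene. The median log2 fold change over the genes tested was -0.38, where it was 0.09 over all genes, and by family it was -0.27 for GST, -0.31 for UGT and -0.57 for SULT genes.

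The largest decreases were in SULT genes. sult3st2 was at 0 to 19.2 CPM at 20 µM (median 3.21) against 6.36 to 93.5 CPM at 0 (median 21.8), and 30 of 40 larvae lay below every larva at 0. Its log2 fold change was -2.46 ± 0.21 (adjusted p = 6.31e-22, edgeR's quasi-likelihood test). sult1st3, of the SULT1 family that acts on phenols and thyroid hormones in mammals, was at 0 to 11.7 CPM (median 1.69) against 1.37 to 31.2 CPM at 0 (median 15.2). That was a log2 fold change of -2.76 ± 0.25 (adjusted p = 2.55e-20), with 19 of 40 larvae below every larva at 0. The lowest larva at 0 held 2 counts, so this separation lies near the floor of 3 counts.

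sult1st6 was at 0 to 43.5 CPM at 20 µM (median 12.8) against 8.68 to 102 CPM at 0 (median 55.1), a log2 fold change of -1.95 ± 0.17 (adjusted p = 2e-21, edgeR's quasi-likelihood test). sult6b1, the SULT gene with the most counts, was at 30.1 to 137 CPM (median 68.0) against 79.3 to 353 CPM at 0 (median 174), a log2 fold change of -1.39 ± 0.12 (adjusted p = 6.54e-21). The groups overlapped for both, with 12 and 23 of 40 larvae below every larva at 0. sult3st5 had a log2 fold change of -2.29 ± 0.32 at low counts, and the SULT2 genes, whose mammalian relatives act on steroids, had -0.97 (sult2st2), -0.80 (sult2st3) and -0.57 (sult2st1). The summed SULT level was 318 ± 45.4 CPM at 20 µM against 565 ± 102 CPM at 0.

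Over all strains, sult6b1, sult1st6 and sult3st2 were called at 20 µM and not at 1 or 5 µM. Mean levels at 0, 1, 5 and 20 µM were 183, 178, 171 and 70.4 CPM for sult6b1, and 57.4, 53.7, 53.9 and 14.3 CPM for sult1st6. They were 24.6, 22.6, 22.6 and 4.52 CPM for sult3st2.

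**Figure D4:**
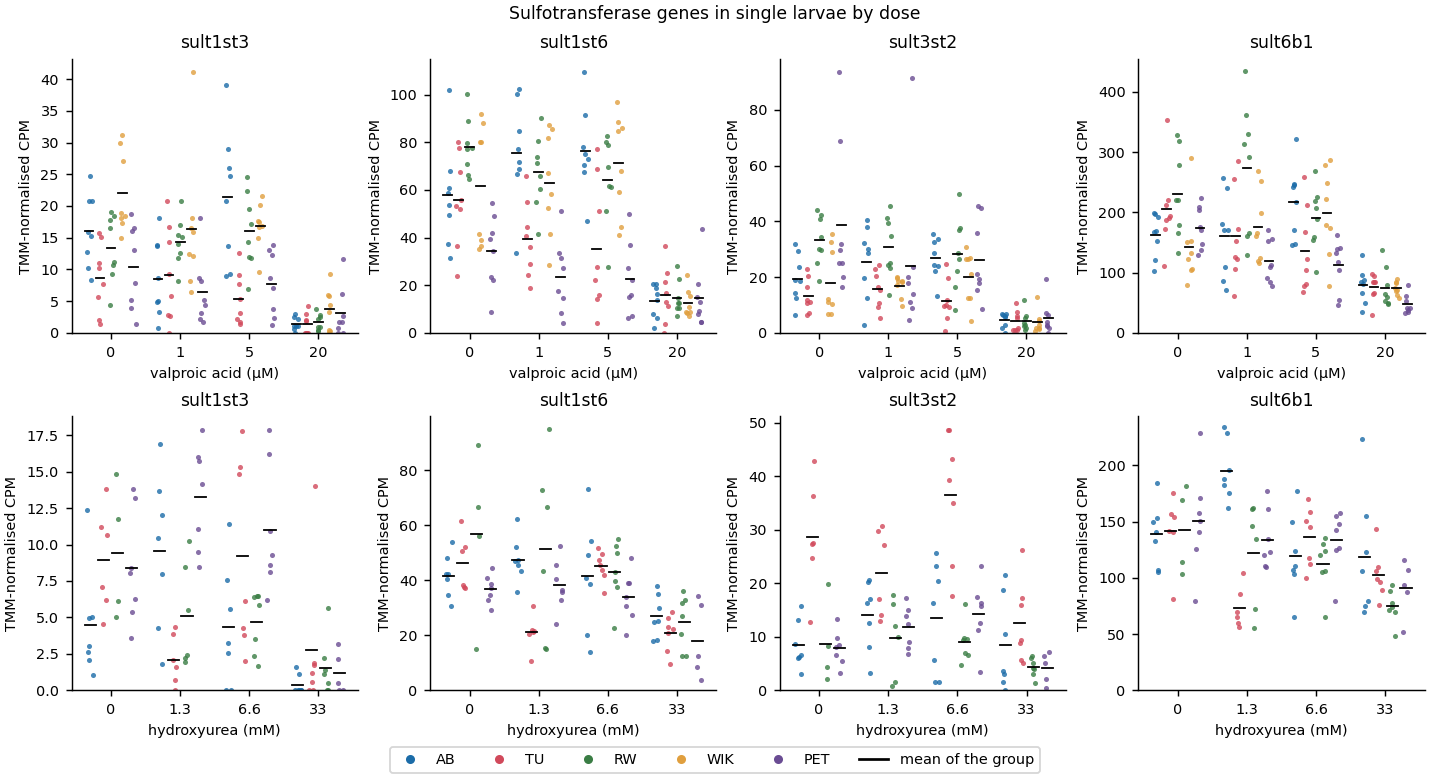
TMM-normalised CPM (y axis) of sult1st3, sult1st6, sult3st2 and sult6b1 in single larvae by dose (x axis) of valproic acid in µM (top) and hydroxyurea in mM (bottom), coloured by strain, with black lines at the group means. The levels at 20 µM valproic acid lie below most of those at 0, 1 and 5 µM in each strain, with mean levels of 70.4 CPM against 183 CPM at 0 for sult6b1.

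Among GST genes at 20 µM valproic acid, gsto1 was at 0 to 13.3 CPM (median 4.89) against 3.39 to 35.5 CPM at 0 (median 17.7), a log2 fold change of -1.80 ± 0.19 (adjusted p = 4.43e-15, edgeR's quasi-likelihood test). gsto2 (log2 fold change -0.91), the mitochondrial and peroxisomal gstk1 (-0.82), gstz1 (-0.77) and gsta.1 (-0.71) were also lower. gsta.1 averaged 410.4 ± 165 CPM against 648 ± 231 CPM at 0. Higher were gstm.3, with 51.5 ± 18.4 CPM against 37.2 ± 14.1 CPM (log2 fold change 0.50, adjusted p = 4.01e-05), and gstp1, with 779 ± 210.2 CPM against 653 ± 221 CPM (0.30, adjusted p = 0.0132, mean higher in 3 of 5 strains). The third gene that was higher was sult1st1 (0.45, adjusted p = 0.0207, mean higher in 5 of 5 strains).

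Most UGT decreases were smaller. ugt1a1 averaged 98.4 ± 39.0 CPM at 20 µM against 140.5 ± 43.2 CPM at 0 (log2 fold change -0.51, adjusted p = 2.85e-05, edgeR's quasi-likelihood test), and ugt2a4 38.4 ± 15.7 CPM against 54.2 ± 14.3 CPM (-0.51, adjusted p = 4.26e-05). ugt5a2, ugt5b2, ugt5b4 and ugt2a7 were lower as well, with log2 fold changes of -1.31, -0.71, -0.68 and -0.56. ugt8, which makes the myelin lipid galactosylceramide, had a log2 fold change of 0.02 ± 0.13 (adjusted p = 0.936), while 5 of 6 myelin markers were lower (summed median 89.6 CPM against 279 CPM at 0).

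Within single strains, 20 µM lowered 13 members in AB, 10 in PET, 15 in RW, 7 in TU and 10 in WIK and raised 0, 0, 2, 2 and 1, of 53 tested, where 5.80%, 6.77%, 6.67%, 6.94% and 12.1% of all genes were called. gsto1, sult1st3, sult1st6, sult3st2 and sult6b1 were lower in each of the 5 strains. How many of all genes were lower in every strain was not counted. The change in ugt1a1 differed between strains (strain by dose term, adjusted p = 0.0144, edgeR's quasi-likelihood test), where 7.49% of all genes did. Its log2 fold change was -1.10 ± 0.22 in AB, -0.85 ± 0.21 in RW and -0.64 ± 0.21 in WIK, all called, and -0.25 ± 0.22 in PET and 0.16 ± 0.21 in TU, not called. No other member passed this test, the next being sult3st3 (adjusted p = 0.0559).

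At lower doses, calls within strains were made in PET. At 1 µM, of 53 members tested, gstz1 (log2 fold change -1.70), sult4a1 (-1.20), sult2st2 (-1.03) and gstm.1 (-0.90) were lower in PET, where 7.2% of all genes were lower. At 5 µM, of the same 53, ugt5g1 (-2.44), sult4a1 (-1.73), gstz1 (-1.14), gstm.1 (-1.09) and gstt1a (-0.71) were lower, where 6.44% of all genes were. The calls in PET at these doses thus lay near the share over all genes and are not particular to the members. sult4a1 is a brain SULT whose substrate is not known. PET larvae had the lowest median total count of the 5 strains in this experiment, at 1053357.5, and its part in these calls was not tested.

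Supporting genes and markers at 20 µM valproic acid gave a mixed picture. Of 7 genes for PAPS supply, papss2a (log2 fold change -0.68), which makes PAPS, and bpnt1 (-0.69), which breaks down its product, were lower, and slc35b2 and papss2b were higher. Of the other lists, 5 of 9 nuclear receptors and targets were lower, and 2 of 6 UDP-glucuronate genes were higher (ugdh and slc35d1a). Of 7 genes on the glutathione list, 0 were higher and 1, chac1, was lower. Of 12 Nrf2 genes 1 was higher and 3 lower, of 12 other conjugation genes 2 and 2, and of 8 aryl hydrocarbon receptor genes 1 and 1. Intestine markers were lower for 6 of 10 (1 higher), with a summed median of 2111 CPM at 20 µM against 4071 CPM at 0, and kidney markers for 4 of 7 (82.7 CPM against 179 CPM). Liver markers were lower for 5 of 13 and higher for 3 (5645 CPM, range 2387 to 9845, against 7508 CPM, range 2792 to 13490). Exocrine pancreas markers were lower for 9 of 9 (545 CPM against 7932 CPM), and the 7 hatching gland and embryonic globin genes were all higher. The part of these tissues in the falls of the conjugation genes was not tested.

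With hydroxyurea, no member was called at 1.3 or 6.6 mM by edgeR or by DESeq2's Wald test, where edgeR called 0.00665% and 1.15% of all genes, and 0 and 5 members had an unadjusted p under 0.05. At 33 mM, 1 of the 42 genes tested was higher and 17 lower, where 10.3% of all 15042 genes were higher and 12.5% lower. Lower were 5 of 15 GST, 4 of 11 UGT and 8 of 16 SULT genes. The median log2 fold change over the genes tested was -0.27, where it was 0.02 over all genes. Without TU larva 7, 20 members were called, of which 18 were those called with it, and 3553 genes were called in all, against 3432 with it. The 2 members added were gstp1 (log2 fold change -0.21, adjusted p = 0.0156, edgeR) and gsto1 (-0.74, adjusted p = 0.0489).

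ugt1a1 was the most separated. It was at 27.5 to 237 CPM at 33 mM (median 60.3) against 84.8 to 199 CPM at 0 (median 133), with 24 of 26 larvae below every larva at 0 and 1, TU larva 7, above them all. Its log2 fold change was -1.09 ± 0.11 (adjusted p = 2.02e-14, edgeR's quasi-likelihood test), and -1.22 ± 0.10 (adjusted p = 4.11e-20) without that larva. gstr was at 33.4 to 154 CPM (median 64.9) against 73.1 to 135 CPM at 0 (median 116), with 18 of 26 larvae below every larva at 0. Its log2 fold change was -0.75 ± 0.09 (adjusted p = 6.82e-12), and -0.83 ± 0.08 (adjusted p = 2.52e-16) without that larva.

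Of 16 SULT genes tested at 33 mM, 8 were lower, 1 was higher and 7 were not called. sult1st3 was at 0 to 14.0 CPM at 33 mM (median 0.561) against 1.05 to 14.8 CPM at 0 (median 6.25), a log2 fold change of -2.23 ± 0.35 (adjusted p = 1.21e-07, edgeR's quasi-likelihood test), and of -2.75 ± 0.35 (adjusted p = 9.69e-11) without TU larva 7. Its median at 33 mM lay under the floor of 3 counts at the median depth. sult2st2 was at 14.4 to 72.6 CPM (median 53.3) against 43.6 to 143 CPM at 0 (median 98.2), a log2 fold change of -0.87 ± 0.11 (adjusted p = 1.3e-10). sult1st6 averaged 22.9 ± 9.43 CPM against 43.8 ± 14.7 CPM (-0.99 ± 0.16). ugt5b4 had the largest fall among UGT genes, with 11.98 ± 6.56 CPM against 32.6 ± 14.9 CPM (-1.45 ± 0.17, adjusted p = 1.88e-12).

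The other genes that were lower were sult3st5 (log2 fold change -1.25), sult3st2 (-0.77), gsta.2 (-0.75), ugt5b2 (-0.61), sult6b1 (-0.56), sult4a1 (-0.55), ugt2a4 (-0.54), gsta.1 (-0.52), gstt1b (-0.51), gsto2 (-0.42, adjusted p = 0.0497, edgeR) and sult3st3 (-0.41). sult5a1, at low counts, was higher (1.35 ± 0.43, adjusted p = 0.0142, edgeR), with 3.57 ± 4.13 CPM against 1.28 ± 1.56 CPM. It may have passed the filter on low counts largely through exposed larvae, so its call adds little weight. Without TU larva 7, the log2 fold change of gsto2 was -0.61 (adjusted p = 0.000665) and that of gstt1b -0.62 (adjusted p = 1.21e-08, edgeR). With that larva kept, the call of gsto2 was lost without any 1 of PET larvae 1 to 5 at 33 mM or without RW larva 1, 3 or 4 at 0 (adjusted p = 0.0604 to 0.0908), and that of sult3st5 without RW larva 4 at 0 (adjusted p = 0.0568). Apart from TU larva 7, only the PET larvae at 33 mM and the RW larvae at 0 were left out singly.

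Within strains, 33 mM lowered 6 members in AB, 13 in PET, 12 in RW and 6 in TU of 46 tested and raised 1, gstm.1 in PET, where 7.24%, 9.42%, 6.13% and 6% of all genes were called. gstr, sult1st3, sult2st2 and ugt1a1 were lower in each of the 4 strains, and the share of all genes lower in every strain was not counted. No member's change differed between strains (strain by dose term, edgeR's quasi-likelihood test, lowest adjusted p = 0.115 for gsta.1), where 0.777% of all genes did and 11 members had an unadjusted p under 0.05. Without PET larva 4 at 33 mM, 1 member's change differed between strains. In TU at 1.3 mM, gsto2 (log2 fold change -1.25) and sult6b1 (-0.90) were lower, where 0.383% of all genes were. sult6b1 was at 56.1 to 104 CPM in that group, against 80.9 to 175 CPM at 0 and 99.5 to 170 CPM at 6.6 mM in TU. Its low level at 1.3 mM thus did not continue at the next dose.

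Intestine markers were lower for 9 of 9 at 33 mM hydroxyurea (summed median 1862 CPM against 3742 CPM at 0) and exocrine pancreas markers for 9 of 9 (641 CPM against 5337 CPM). Liver markers were lower for 5 and higher for 4 of 13 (8235 CPM against 8623 CPM), kidney markers 1 and 1 of 7 (57.8 CPM against 91.3 CPM), and myelin markers lower for 5 of 6 (141 CPM against 224 CPM). Of the pathway lists, papss2a (log2 fold change -1.01) and bpnt1 (-0.40) of 6 PAPS genes and 3 of 6 nuclear receptors and targets (cyp3a65 at -1.94) were lower. So were 3 of 12 other conjugation genes, 2 of 7 aryl hydrocarbon receptor genes and 1 of 6 genes on the glutathione list, chac1. Of 5 genes on the UDP-glucuronate list 2 were higher (gusb and slc35d1a) and 1 lower (slc35d1b). Of 12 Nrf2 genes 3 were higher and 1 lower, and of 5 hatching gland and globin genes tested 2 were higher. Their part in the changes was not tested.

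Across the experiments, which have separate larvae at 0, gsta.1, sult1st6, sult2st2, sult3st2 and sult6b1 were lower at the highest dose of each compound. The share of all genes lower with every compound was not counted, and shares are given for pairs. Of the genes tested in both of a pair, 6 members were lower with both valproic acid and 300 µM warfarin (25% of the 24 and 100% of the 6, where the shares over all genes were 24.9% and 73.0%), and 5 with both hydroxyurea and warfarin (29.4% of the 17 and 83.3% of the 6, where they were 24.2% and 66.5%). In the same way, 15 members were lower with both 20 µM valproic acid and 33 mM hydroxyurea, which was 62.5% of the 24 and 88.2% of the 17, where the shares over all genes were 54.0% and 58.0%. Genes that were lower with valproic acid and higher with 300 µM warfarin were 7 members (gsta.2, gsto1, gsto2, gstp2, ugt1a1, ugt2a4 and ugt5a2), 29.2% of the 24 and 63.6% of the 11, where the shares over all genes were 3.47% and 10.9%. Of these 7, ugt5a2 lay near the floor of counts in many larvae of the valproic acid experiment. Lower with hydroxyurea and higher with warfarin were gsta.2, gsto2, gstt1b, ugt1a1 and ugt2a4, 29.4% of the 17 and 50% of the 10, where the shares over all genes were 2.89% and 8.55%. These shares are a description and were not tested.

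Among larvae at 0, strain differences were found for 22 of 46 members in the valproic acid experiment, 11 of 41 in the hydroxyurea experiment and 7 of 38 in the warfarin experiment, where 44.3%, 12% and 5.98% of all genes differed. The count with valproic acid thus lay near the share over all genes. Depth differed between strains over all doses, with median totals of 6718419.5 in RW and 1053357.5 in PET with valproic acid. With hydroxyurea they were 858849.5 in AB and 3375084 in TU. Fewer members were called in each experiment with thinned counts or with total count as a covariate. In the warfarin experiment, where only RW larvae were left out singly, the count was 3 without RW larva 3 and 4 without RW larva 5. Only gsta.2 was called in all 3. In PET it was at 11.8 to 34.8 CPM (median 22.7), 7.36 to 37.6 CPM (median 15.7) and 14.6 to 51.8 CPM (median 22.5) in the valproic acid, hydroxyurea and warfarin experiments. Against the mean of the other strains that was a log2 fold change of -0.92 ± 0.31 (adjusted p = 0.0231, edgeR's quasi-likelihood test), -1.25 ± 0.28 (adjusted p = 0.00598) and -1.03 ± 0.21 (adjusted p = 0.00449). Larvae of the other strains overlapped with PET in each experiment. The strain difference of gsta.2 was not called in the valproic acid and warfarin experiments with thinned counts, in the valproic acid and hydroxyurea experiments without larvae of low total count, or in the valproic acid experiment with total count as a covariate.

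**Figure D5:**
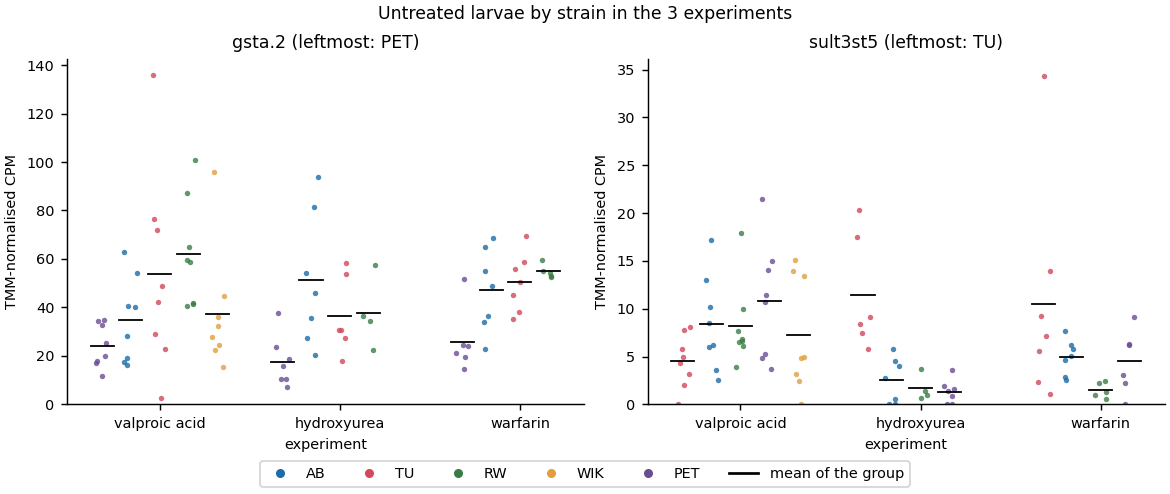
TMM-normalised CPM (y axis) of gsta.2 and sult3st5 in single larvae at 0 by strain (x axis) in the 3 experiments, with black lines at the group means. PET larvae have a median of 15.7 to 22.7 CPM of gsta.2, and larvae of the other strains overlap with them.

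No other strain difference was called in all 3 experiments. sult3st5 was higher in TU than in the mean of the other strains in the hydroxyurea experiment (log2 fold change 2.69, adjusted p = 0.000276, edgeR's quasi-likelihood test) and the warfarin experiment (1.77, adjusted p = 0.0105), and had a value of -0.82 (adjusted p = 0.157) in the valproic acid experiment. The strain difference of sult3st5 was not called with thinned counts in the hydroxyurea and warfarin experiments, or with larva number as a block in the warfarin experiment, where 1 TU larva had 34.4 CPM and the other 6 had 1.05 to 13.9 CPM. gstp1 differed in the valproic acid experiment, where it was lower in PET (-0.61) and higher in WIK (0.64) and RW (0.56), and was not called in the others, except in the warfarin experiment with thinned counts (adjusted p = 0.0024) or with DESeq2's size factors (adjusted p = 0.0417).

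Some members varied together within groups. Over 340 larvae, the deviations of log2 CPM from the means of strain and dose had Pearson's r of 0.68 for gsta.1 and sult6b1, 0.65 for gsta.1 and sult2st2 and 0.61 for gsta.1 and gstp1. In the valproic acid, hydroxyurea and warfarin experiments, r was 0.71, 0.66 and 0.49 for gsta.1 and sult6b1. It was 0.73, 0.39 and 0.42 for gsta.1 and sult2st2, and 0.61, 0.63 and 0.50 for gsta.1 and gstp1. The median r over 1035 pairs of 46 members was 0.09 over all larvae. The larvae differ in depth, and the labels do not say which of them shared a library preparation, so these values are a description only.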

How the data were processed

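RNA of single whole larvae was measured by 3′ RNA-Seq in 3 experiments. The deposited table, made by the authors, holds estimated counts of each gene in each larva without normalisation, and the submitters' processing notes name GRCz11 and Seurat 5.1.0. The aligner and the counting tool are not given in the sources used here. Of the table, 34 genes had values that were not whole in 24 larvae, none of them a member, and all values were rounded. The tests had been planned for whole counts and suit rounded estimated counts as well.

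Larvae were grouped by strain and dose from their labels. Genes were kept by filterByExpr (minimum count 10, minimum total 15) within each experiment, normalised by TMM and tested over all genes kept with edgeR 4.0.16 in R 4.3.3 (glmQLFit and glmQLFTest) and Benjamini-Hochberg adjustment. Dose effects were fitted with terms for strain and dose, and within-strain effects, strain by dose terms and strain differences at 0 from means of each strain and dose. The tests were first tested on simulated data. DESeq2 1.42.0 was an alternative, as were its size factors, thinning to 300000 counts per larva, no filter, larva number as a block, the log10 total count as a covariate, larvae under 0.5 times the median total left out, and leaving out a larva or a strain.

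Named members were the 6 largest increases and decreases at each highest dose with a mean count of at least 5, the member with the most counts in each class, and those of the strain tests and lower doses. The members and lists were chosen with earlier results of these data known. From the supporting lists, 1 gene was left out and is not reported here. The lists hold genes for glutathione, UDP-glucuronate and PAPS supply, other conjugation, Nrf2, aryl hydrocarbon receptor and nuclear receptors, and markers of liver, intestine, kidney, exocrine pancreas, myelin, and hatching gland with embryonic globin. The supply lists also hold genes that do not supply these compounds, such as chac1, gusb, bpnt1 and sts. Of the genes named, gclc, gclm and abcc2 each stand in more than 1 list.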

Additional observations from a re-analysis of the deposited data

Results flagged for a closer look

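Dixon's test at the 95% level was run on 92 combinations of a picked member and a group of 1 strain and dose. The members were ugt2a4, gstt1b, ugt5a2 and gstp2 with warfarin. With hydroxyurea they were ugt1a1, sult1st3 and gstr at 0 and 33 mM, and with valproic acid sult1st6 and sult6b1 at 0 and 20 µM. In 13 of the 92, 1 larva lay far above the others, which is not a rate over all members, since these were picked. Chance flags about 1 in 20 groups if values are normally distributed. CPM of single larvae need not be, so the 13 are not set against that rate. Of the 13, 3 came from 1 larva. With warfarin, these were ugt5a2 in TU larva 6 at 300 µM (18.6 CPM, next 4.14 CPM), and gstp2 in RW larva 1 at 300 µM (542 CPM, next 107 CPM), AB larva 4 at 150 µM (488 CPM, next 72.0 CPM), PET larva 7 at 150 µM (509 CPM, next 95.9 CPM) and PET larva 6 at 0 (158 CPM, next 61.5 CPM). With hydroxyurea, TU larva 7 at 33 mM lay apart for ugt1a1 (237 CPM, next 103 CPM), gstr (154 CPM, next 74.5 CPM) and sult1st3 (14.0 CPM, next 1.89 CPM). sult1st3 was also apart in RW larva 6 at 33 mM (5.65 CPM, next 2.19 CPM) and AB larva 3 at 0 (12.3 CPM, next 5.03 CPM). In the valproic acid experiment, they were sult1st6 in PET larva 8 at 20 µM (43.5 CPM, next 20.6 CPM) and sult6b1 at 0 in TU larva 7 (353 CPM, next 221 CPM) and WIK larva 7 (291 CPM, next 153 CPM).

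A test of the difference between strains picked out 2 changes at the highest dose. They were 1 of 53 members with valproic acid, where 7.49% of all genes differed, and 1 of 44 with warfarin, where 0.391% did. The call with warfarin was lost in several alternative runs, as given above. The change of ugt1a1 at 20 µM valproic acid had an adjusted p of 0.0144, and that of ugt2a4 at 300 µM warfarin an adjusted p of 0.0462 (edgeR's quasi-likelihood test, strain by dose term). TU larvae had the highest log2 fold change of the strains for ugt1a1 (0.16) and the lowest for ugt2a4 (1.00).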

How the results depend on the processing

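No call of a member at a dose over all strains changed direction under any alternative run. Of these 79 calls over the 3 experiments, 49 were kept and 11 lost with counts thinned to 300000 per larva, and the others were no longer tested. Lost were 14 calls without the shallow larvae (total under 0.5 times the median), 7 with total count as a covariate, 4 with DESeq2's Wald test, 3 without the filter, 2 with DESeq2's size factors, 0 with larva number as a block and 5 to 13 with 1 strain left out. Of all members, fewer were called with thinning: 17 rather than 27 at 20 µM valproic acid, 10 rather than 18 at 33 mM hydroxyurea and 8 rather than 14 at 150 µM warfarin, 34 rather than 60 and 17 rather than 38 within strains for valproic acid and hydroxyurea, and 13, 2 and 4 rather than 22, 11 and 7 between strains at 0 in the valproic acid, hydroxyurea and warfarin experiments. At 5 µM valproic acid the count of 2 became 1 with thinning, 1 without larvae of low total count, 0 with total count as covariate, 4 without the filter, 0 without PET, 1 without TU and 1 without WIK. DESeq2's Wald test called 1 rather than 0 at 1 µM. At 6.6 mM hydroxyurea 1 rather than 0 was called without larvae of low total count and 1 without AB. Between strains at 0, 9 were called with the covariate for valproic acid, 7 with it and 6 without low totals for hydroxyurea, and 2 with it, 3 without low totals and 12 without the filter for warfarin. Members whose change differed between strains were 2 with DESeq2's size factors, 5 without low totals and 3 without the filter rather than 1 for valproic acid, 1 with thinning rather than 0 for hydroxyurea, and 0 without low totals and 2 without the filter rather than 1 for warfarin. The cause was not tested, except that thinning leaves fewer counts. Shares over all genes are not set beside the counts of members in these runs. The counts therefore do not show whether members lost or gained more calls than other genes. Leaving out each of 9 larvae in the hydroxyurea experiment (RW at 0 and PET at 33 mM) gave 16 to 19 at 33 mM, 33 to 38 within strains and 0 to 1 for the difference between strains. At 0 it gave 11 to 13, from 4 RW larvae. Leaving out each of 15 RW larvae in the warfarin experiment gave 13 to 16 at 150 µM, 17 to 18 at 300 µM, 27 to 31 within strains and 0 to 1 for the difference. At 0 it gave 3 to 7, from 5 RW larvae. The other larvae were not left out singly. With DESeq2's size factors the median over all genes at 20 µM valproic acid was 0.12.

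Larva numbers showed no pairing in the median. Deviations of same-numbered larvae of 1 strain at different doses had a median correlation of 0.0041, 0.00026 and -0.00061 in the valproic acid, hydroxyurea and warfarin experiments. Single pairs reached 0.459, 0.169 and 0.156, and pairing within single groups was not tested. With larva number as a replicate block, 27 members were called at 20 µM valproic acid, 18 at 33 mM hydroxyurea, 15 at 150 µM and 18 at 300 µM warfarin, and the change differed between strains for 2 with valproic acid and 0 with warfarin. Fits without TU larva 7 and the comparison of the highest warfarin dose with the lower one were chosen after seeing the data. Levels near 1 CPM were not detectable in many larvae at this depth.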
